A study of Mus musculus with 4 samples.

Results

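The 10 genes described here belong to the integrated stress response and are either its transcription factor, Atf4, or genes that ATF4 is known to act on: Ddit3, Ppp1r15a, Asns, Psat1, Trib3, Chac1, Cebpb, Sesn2 and Slc3a2. They were found by symbol among the 32285 genes of 2 single-cell libraries, where 11 rows carried the 10 symbols because Ddit3 stands for 2 gene identifiers. The libraries held LSK cells (lineage-negative, Sca1-positive, c-Kit-positive) from livers of E17.5 mouse fetuses, a gate that holds haematopoietic stem cells and early progenitors. The KO library came from Vav-Cre:Bclaf1 f/f embryos and the WT library from Bclaf1 f/f embryos, so both carried the floxed Bclaf1 alleles and the Cre was in KO embryos only. Vav-Cre is active in blood cells as a whole, not in stem cells alone. Each library was 1 pool of 10 embryos, enriched for c-Kit and double sorted, with 20000 cells sorted and 10000 loaded, and read as RNA and as surface antibodies (CITE-seq). The title of the study places the question in stress responses of stem cells without BCLAF1, a factor that binds BCL2 family proteins and has reported roles in RNA processing.

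In the integrated stress response, kinases that sense amino acid shortage, unfolded protein, haem shortage or double-stranded RNA phosphorylate the translation factor eIF2alpha. General translation drops, while the ATF4 message is translated better, and ATF4 then raises genes for amino acid supply, for the feedback that removes the phosphate and, under lasting stress, for cell death. Much of ATF4 control is thus at translation, which RNA levels do not show. Haematopoietic stem cells have been described as being poised for this response.

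Cells numbered 2676 in KO and 5345 in WT. They carried 104358292 UMIs of genes in KO, a UMI (unique molecular identifier) standing for 1 captured transcript, and 141419013 in WT, or a median of 34187.5 per KO cell and 22734 per WT cell. The libraries shared 5 cell barcodes. Bclaf1 had 75.8 counts per 1000000 gene UMIs (CPM) in KO cells, against 218 CPM in WT cells, a log2 ratio of -1.52. With 3′ counting, where deleted exons need not be read, this is a partial check of the label. Erythroid-like cells were 11.4% of KO cells and 4.58% of WT cells. With 1 library per genotype there is no replicate check, so no test was made, and genotype, embryo pool, sort and capture cannot be told apart. The intervals given are 95% intervals for counting error only. A level is the sum of UMIs in CPM, a ratio is the log2 of the KO level over the WT level, and a gene counts as measured at a mean of at least 5 CPM. Higher means at least 25% higher in KO cells, and lower means at least 20% lower. Some counts are also taken from the median gene, with the median log2 ratio of all measured genes first subtracted. For those counts the share of all genes past the shifted mark is not given here, so they cannot be set against it.

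Over all LSK cells, 7 of the 10 genes were measured, and Trib3, Chac1 and Sesn2 were under 5 CPM. Of the 7, Atf4, Ppp1r15a, Asns and Psat1 were higher in KO cells, where 7.47% of all 9229 measured genes were higher. None of the 7 was lower, where 2.57% of measured genes were lower. With each cell thinned to the same number of UMIs, Slc3a2 and Cebpb also passed the 25% mark, which made 6 of 7. The share of all genes past that mark in thinned cells is not given here. The 7 had a median log2 ratio of 0.38, beside a median of 0.07 over all measured genes.

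**Figure D1:**
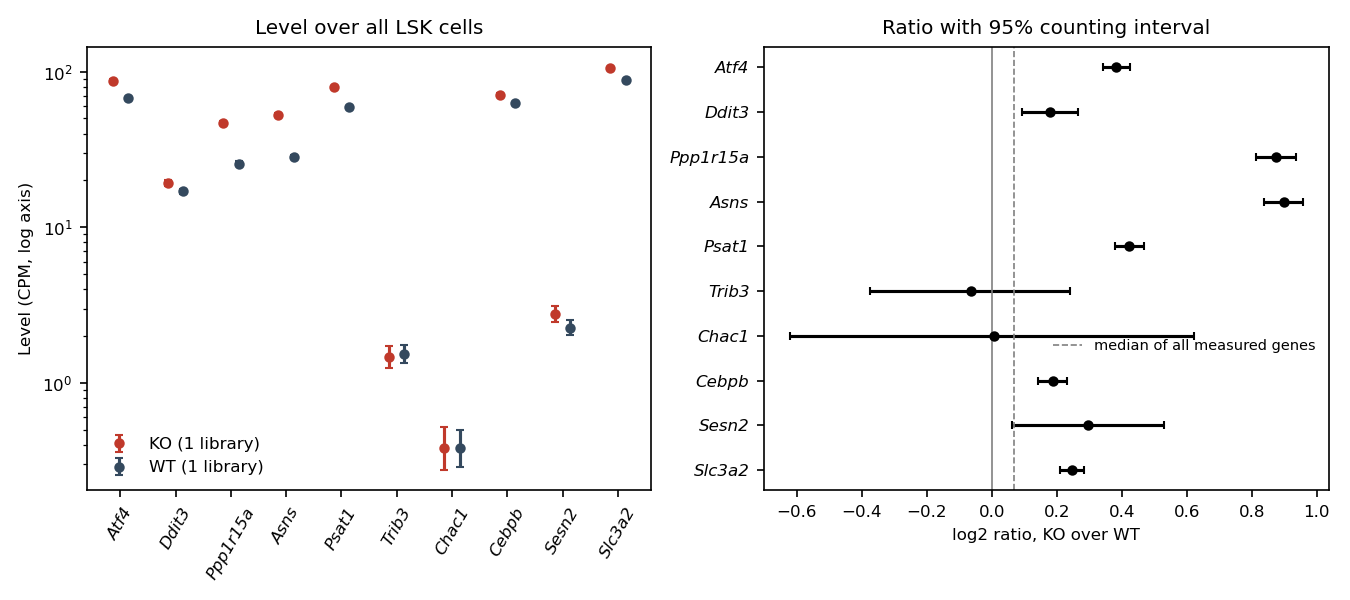
Left, level of each gene over all LSK cells in CPM on a log axis, in the KO library (red) and the WT library (blue). Right, log2 ratio of KO over WT, with bars for the 95% counting interval and a dashed line at the median of all measured genes, 0.07. Ppp1r15a and Asns stand furthest to the right, at 0.87 and 0.90.

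Atf4, the transcription factor itself, is on chromosome 15 (80255184 to 80257545, GRCm38.p6). It had 87.7 CPM in KO cells, with an interval of 85.9 to 89.5 CPM, against 67.3 CPM in WT cells, with an interval of 65.9 to 68.6 CPM. The intervals did not overlap and the log2 ratio was 0.38 (0.34 to 0.42). Scaled to the median gene the Atf4 ratio was 0.32, just under the 25% mark, and with free RNA subtracted at its upper bound it was 0.26.

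Atf4 varied little between classes of cells, with the highest class 1.40 times the lowest in KO and 1.54 times in WT. Among the 7 named classes it ranged between 73.5 CPM in lymphoid-like and 103 CPM in granulocyte-monocyte-like KO cells, and between 56.9 CPM in lymphoid-like and 87.3 CPM in erythroid-like WT cells. In both libraries the counting intervals of all neighbours in the order of the 7 classes overlapped, but classes further apart could differ. Lymphoid-like cells were below HSC-like cells at a log2 ratio of -0.27 (-0.49 to -0.05) in KO and -0.26 (-0.46 to -0.06) in WT. Erythroid-like cells were above HSC-like cells at 0.36 (0.23 to 0.49) in WT, while in KO the interval took in 0. The KO level was above the WT level in 14 of the 14 clusters that held at least 50 cells of each library, with log2 ratios between 0.16 in the erythroid-like cluster and 0.53 in the granulocyte-monocyte-like cluster.

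Cebpb, a basic leucine zipper partner of ATF4 that also drives myeloid genes, is on chromosome 2 (167688915 to 167690432). Its level followed lineage. It had 197 CPM in monocyte or dendritic-like KO cells and 154 CPM in those of WT, against 16.4 CPM in erythroid-like KO cells and 18.4 CPM in erythroid-like WT cells. Over all LSK cells it had 71.1 CPM in KO and 62.5 CPM in WT, a log2 ratio of 0.19. Without the erythroid-like cells, where Cebpb is low, the ratio was 0.35 (0.31 to 0.40), and in thinned cells it was 0.33.

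Ddit3, which encodes the factor CHOP of the response to lasting stress, is on chromosome 10 (127290793 to 127296291). It had 19.2 CPM in KO cells, with an interval of 18.4 to 20.1 CPM, against 17.0 CPM in WT cells, with an interval of 16.3 to 17.7 CPM. The log2 ratio was 0.18 (0.09 to 0.27), below the 25% mark, and 0.29 in thinned cells. The KO level was above the WT level in 11 of 14 clusters, and in 0 of 14 by at least 25%, with ratios between -0.21 and 0.24. The interval took in 0 in all 14. Its highest level was in mast cell-like cells, with 48.0 CPM in KO and 37.9 CPM in WT, and the next was in HSC-like cells, with 27.7 CPM in KO and 23.4 CPM in WT. In both libraries the intervals of these classes did not overlap. These values are for the identifier ENSMUSG00000025408. The other row named Ddit3 held 0 UMIs in both libraries, and whether reads were divided between the identifiers was not tested.

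Ppp1r15a encodes GADD34, the subunit that brings the phosphatase to eIF2alpha and so ends the response, and is on chromosome 7 (45522917 to 45526268). It had 47.0 CPM in KO cells, with an interval of 45.7 to 48.3 CPM, against 25.6 CPM in WT cells, with an interval of 24.8 to 26.5 CPM. The log2 ratio was 0.87 (0.81 to 0.94). Of the 7 measured members it was the only one higher by at least 25% in 14 of 14 clusters, with ratios between 0.47 and 1.20 and a median of 0.86. Leaving out the 1% of cells with the most Ppp1r15a UMIs in each library gave 0.91.

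Within each library Ppp1r15a was high in HSC-like cells, with 84.0 CPM in KO and 53.3 CPM in WT, and megakaryocyte-like cells, with 71.3 CPM in KO and 36.6 CPM in WT. It was low in erythroid-like cells, with 39.9 CPM in KO and 22.1 CPM in WT. In mast cell-like cells it had 124 CPM in KO, from 46 cells, and 32.7 CPM in WT, from 71 cells. By surface antibodies it was highest in CD150+CD48- cells, a gate used to enrich stem cells, with 61.5 CPM in KO and 46.9 CPM in WT. It was lowest in CD150-CD48+ progenitors, with 40.3 CPM in KO and 21.0 CPM in WT. The intervals of the highest gate and the next overlapped in KO and did not in WT.

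Ppp1r15a is also known as an early response gene, and a list of 20 immediate early genes was compared beside it. Over all LSK cells 14 of the 16 measured ones were higher in KO cells, where 7.47% of all measured genes were. Their median log2 ratio was 0.96, and their summed level was 1814 CPM in KO and 995 CPM in WT. In HSC-like cells 16 of 17 were higher, where 19.6% of all genes were, and their summed level was 2544 CPM in KO and 1300 CPM in WT. Of 11 measured heat shock genes, Hspa1a and Hspa1b, near-identical copies, and Hsph1 and Dnajb1 were higher over all LSK cells, 4 in all, with a list median of 0.27. Of 14 endoplasmic reticulum chaperone genes only Dnajb9 was higher over all LSK cells, near the share of all genes, with a list median of 0.13. In granulocyte-monocyte-like cells 12 of 14 were higher, where 21.1% of all genes were. Their median there was 0.43, with summed levels of 4281 CPM in KO and 3195 CPM in WT. Calr is on both this list and the marker list that named the class. In droplets without a cell, Ppp1r15a was at 47.9 CPM in KO and 26.0 CPM in WT, a log2 ratio of 0.88. The part of the immediate early genes, or of RNA outside cells, in the Ppp1r15a ratio was not tested. With free RNA subtracted at its upper bound the ratio over all LSK cells was 0.83.

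The start of Ppp1r15a is shown because a motif of the CREB and ATF family lies just before it. The 250 bases before its start (chr7:45526269-45526518, minus strand, RefSeq, GRCm38.p6) hold the cyclic AMP response element TGACGTCA, in capitals, 12 bases before the start. Among 32851 such windows 1.55% hold this motif on either strand.
Ppp1r15a: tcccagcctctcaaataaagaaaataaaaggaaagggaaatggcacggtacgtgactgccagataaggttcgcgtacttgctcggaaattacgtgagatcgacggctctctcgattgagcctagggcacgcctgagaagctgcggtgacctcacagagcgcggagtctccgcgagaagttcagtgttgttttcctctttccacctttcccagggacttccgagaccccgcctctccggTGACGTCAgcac

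Other windows carry the core of the composite C/EBP and ATF element, TGATGNAA, in which N is any base. Searched on both strands, this core is in 3.45% of the windows, and in those of 2 of the 10 members, Asns and Chac1. In Asns (chr6:7693210-7693459, minus strand) it lies 23 bases before the start as TGATGAAA. In Chac1 (chr2:119350992-119351241, plus strand) it lies 193 bases before the start, on the opposite strand, and so reads TTGCATCA. Capitals mark these letters in both windows. A match describes the letters and is no evidence of binding. Motifs further away or inside the genes were not searched.
Asns: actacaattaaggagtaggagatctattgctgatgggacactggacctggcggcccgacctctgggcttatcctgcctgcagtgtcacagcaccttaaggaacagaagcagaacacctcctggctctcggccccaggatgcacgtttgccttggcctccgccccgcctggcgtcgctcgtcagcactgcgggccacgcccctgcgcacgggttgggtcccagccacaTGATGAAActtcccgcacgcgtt
Chac1: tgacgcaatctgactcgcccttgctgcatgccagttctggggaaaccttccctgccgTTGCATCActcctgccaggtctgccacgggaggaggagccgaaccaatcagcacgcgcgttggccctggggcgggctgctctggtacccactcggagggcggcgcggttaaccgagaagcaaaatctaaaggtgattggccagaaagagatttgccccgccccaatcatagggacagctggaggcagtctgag

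Asns, asparagine synthetase, is on chromosome 6 (7675165 to 7693209). It had 52.5 CPM in KO cells, with an interval of 51.1 to 53.9 CPM, against 28.2 CPM in WT cells, with an interval of 27.3 to 29.1 CPM. The log2 ratio of 0.90 (0.84 to 0.96) was the highest of the 7 measured genes, with an interval that overlapped that of Ppp1r15a, but most Asns transcripts came from 1 class. Erythroid-like cells gave 71.1% of Asns UMIs in KO and 56.0% in WT, while they gave 21.6% of all gene UMIs in KO and 10.3% in WT.

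Asns had 173 CPM in erythroid-like KO cells and 154 CPM in erythroid-like WT cells, a log2 ratio of 0.17 (0.09 to 0.24). In HSC-like cells it had 17.1 CPM in KO and 13.6 CPM in WT, a log2 ratio of 0.33 with an interval of -0.07 to 0.73. The erythroid-like level was thus above the HSC-like level by 3.33 on the log2 scale in KO and by 3.50 in WT. Lymphoid-like cells were lowest, with 3.46 CPM in KO and 4.32 CPM in WT.

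Thinned to 10000 UMIs per cell, 75.5% of erythroid-like KO cells and 74.3% of erythroid-like WT cells had an Asns UMI, against 1.38% of lymphoid-like KO cells and 3.11% of lymphoid-like WT cells. Without thinning the shares were 96.7% and 95.9% of erythroid-like KO and WT cells, and 8.28% and 5.69% of lymphoid-like KO and WT cells. Median depths were 72706.5 UMIs in KO and 56090 UMIs in WT for the erythroid-like, and 24660 UMIs in KO and 16792 UMIs in WT for the lymphoid-like cells. Of the lymphoid-like cells, 0 in KO and 10 in WT were too shallow to thin.

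**Figure D2:**
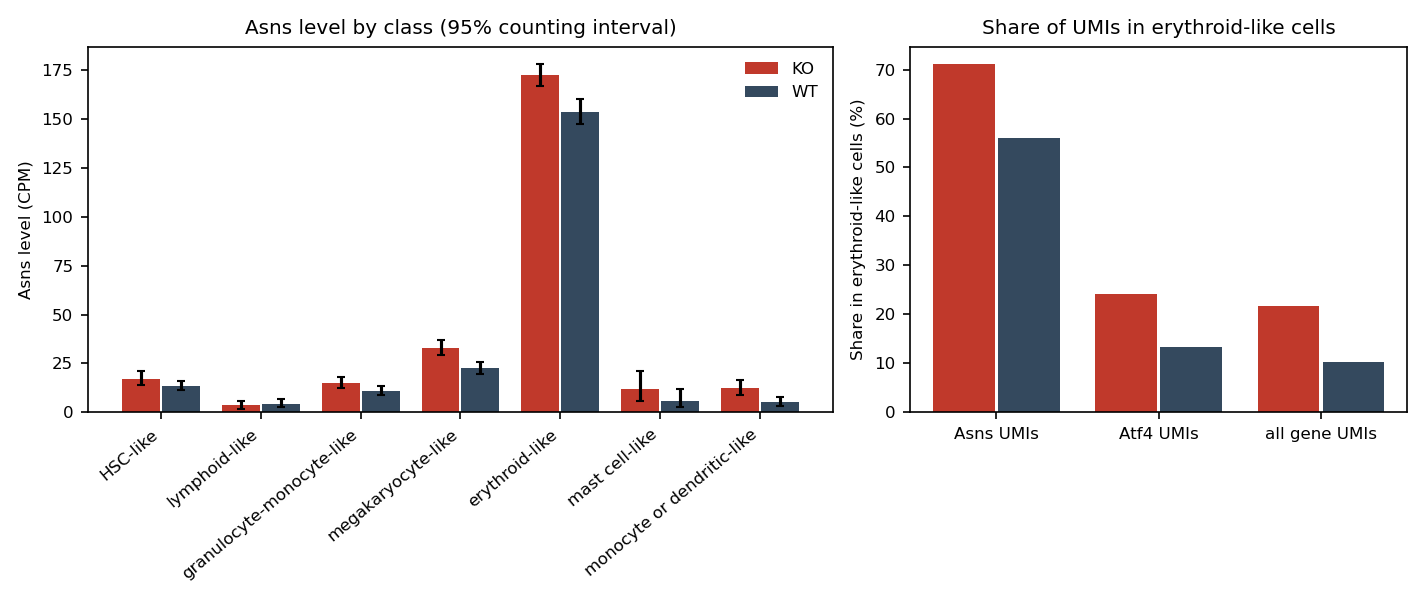
Left, Asns level in CPM in the 7 named classes, KO (red) left of WT (blue), with 95% counting intervals. Right, share of the Asns UMIs, the Atf4 UMIs and all gene UMIs of each library that lay in erythroid-like cells, in percent. Asns stands at 173 and 154 CPM in erythroid-like KO and WT cells, and at 32.7 CPM or less in the 6 other classes.

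Without the erythroid-like cells Asns had 19.4 CPM in KO and 13.8 CPM in WT, a log2 ratio of 0.49 (0.39 to 0.59). With the WT shares of the clusters given to both libraries the ratio over all LSK cells was 0.26, below the 25% mark. Droplets without a cell held Asns at 82.3 CPM in KO and 49.0 CPM in WT, a log2 ratio of 0.75. At the upper bound of free RNA this would give 22.7 CPM in KO cells and 8.65 CPM in WT cells, which for KO is above the whole level outside erythroid-like cells. The whole level in lymphoid-like cells, 3.46 CPM in KO and 4.32 CPM in WT, lay below those bounds. Free RNA thus gave those cells less Asns than the bound. The part of free RNA in the Asns ratios outside erythroid-like cells was not tested. Within clusters, the KO level was above the WT level in 13 of 14 and higher by at least 25% in 10 of 14, with ratios between -0.32 in the lymphoid-like cluster, where Asns was under 5 CPM, and its highest value in the monocyte or dendritic-like cluster, where Asns had 12.2 CPM in KO and 5.12 CPM in WT (log2 interval 0.48 to 2.07). Among all LSK cells without the erythroid-like, Atf4, Ppp1r15a, Asns, Psat1 and Cebpb were higher, 5 of 7, where 8.15% of all measured genes were. Counted from the median gene of those cells, at 0.09, only Ppp1r15a and Asns were.

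Psat1, an enzyme of serine synthesis, is on chromosome 19 (15905123 to 15925059). It had 79.3 CPM in KO cells, with an interval of 77.6 to 81.1 CPM, against 59.2 CPM in WT cells, with an interval of 57.9 to 60.4 CPM, a log2 ratio of 0.42 (0.38 to 0.47). Like Asns it was highest in erythroid-like cells, with 114 CPM in KO and 89.3 CPM in WT, and low in HSC-like cells, with 32.8 CPM in KO and 26.8 CPM in WT. Within erythroid-like cells the ratio was 0.35 (0.26 to 0.45). Over all LSK cells without them it was 0.32, just past the 25% mark, and with the WT shares of clusters 0.29. The KO level was above the WT level in 13 of 14 clusters and higher by at least 25% in 5 of 14.

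Slc3a2 encodes the heavy chain shared by amino acid exchangers at the cell surface, also known as CD98, and is on chromosome 19 (8706882 to 8723369). It had 105 CPM in KO cells and 88.4 CPM in WT cells, a log2 ratio of 0.25 (0.21 to 0.28) that lay under the 25% mark. In thinned cells it was 0.34, past that mark. It was above WT in 14 of 14 clusters, with ratios between 0.07 and 0.50, and by at least 25% in 6. Mast cell-like cells stood apart from all other classes, with 556 CPM in KO and 430 CPM in WT. HSC-like cells came next, with 132 CPM in KO and 97.7 CPM in WT.

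The other members were rare. Trib3, a pseudokinase that feeds back on ATF4, had 153 UMIs in KO and 217 in WT, which is 1.47 CPM in KO and 1.53 CPM in WT. HSC-like cells held 25.5% of the Trib3 UMIs in KO and 40.6% in WT, with 4.70% of all gene UMIs in KO and 7.59% in WT. There Trib3 was at 7.95 CPM in KO and 8.20 CPM in WT, and the interval of the log2 ratio ran between -0.63 and 0.51. In erythroid-like cells it had 33 UMIs in KO and 5 in WT, at log2 ratio 2.09 (0.72 to 3.80).

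Sesn2, which restrains mTORC1 when leucine is short, had 2.78 CPM in KO and 2.26 CPM in WT, a log2 ratio of 0.30 (0.06 to 0.53). HSC-like cells were again the highest class and the only one of the 7 in which it was measured, with 7.34 CPM from 36 UMIs in KO and 4.10 CPM from 44 UMIs in WT, at 0.84 (0.16 to 1.51). It passed the minimum mean there only through its KO level, as the WT level lay under that minimum. Chac1, which degrades glutathione, had 40 UMIs in KO and 54 in WT, or 0.38 CPM in each. At this depth no difference in Chac1 was detectable, with an interval of -0.62 to 0.62.

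The members were next compared between surface gates, which were set on the antibody counts. In the CD150+CD48- gate, with 289 KO and 565 WT cells, Atf4, Ppp1r15a, Asns and Psat1 were higher, 4 of 7 measured, where 17.8% of all measured genes were. Cebpb was lower, with 48.4 CPM in KO and 64.2 CPM in WT, where 21.4% of genes were lower. HSC-like cells made up 48.8% of the KO and 68.3% of the WT cells in this gate. Erythroid-like cells made up 62 of the 289 KO cells in this gate, 21.5%, and 22 of the 565 WT cells, 3.89%. Without them the same 4 members were higher, where 20.3% of genes were, and Cebpb had 83.2 CPM in KO and 71.8 CPM in WT, a log2 ratio of 0.21 in place of -0.41. The summed level of the 12 erythroid markers in the whole gate was 1369 CPM in KO and 722 CPM in WT. In this gate 46 of 55 G2/M genes were higher in KO with or without the erythroid-like cells. Over all LSK cells 18 of 55 were, where 7.47% of all genes were, and the part of G2/M genes in the members' ratios was not tested.

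Asns in this gate had 107 CPM in KO, with an interval of 101 to 114 CPM, against 34.4 to 41.9 CPM in WT, and the log2 ratio lay between 1.33 and 1.67. Without erythroid-like cells it had 27.1 CPM in KO and 16.8 CPM in WT, a log2 ratio of 0.69 (0.35 to 1.02), and with the WT shares of clusters in the gate 0.14. In the part of the gate with high CD201, a further stem cell marker, 31 of 153 KO cells were erythroid-like and 0 of 290 WT cells, which allows a share of up to 1.03%. Asns was at 124 CPM in KO and 14.8 CPM in WT there, a log2 ratio of 3.07. Of the cells in the CD150+CD48- gate, 33.2% in KO and 19.1% in WT lay within 0.25 of the CD201 threshold on the centred log ratio scale. Without the erythroid-like cells it was at 29.4 CPM in KO, from 74 UMIs, and 14.8 CPM in WT, from 65 UMIs, a log2 ratio of 0.99.

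For Ppp1r15a the opposite held. Its log2 ratio in the CD150+CD48- gate was 0.39 (0.22 to 0.56) with erythroid-like cells and 0.63 (0.44 to 0.82) without them, close to the 0.66 in HSC-like cells. In the CD201-high part it was 0.08 (-0.18 to 0.33) with them and 0.43 (0.14 to 0.71) without. Atf4 changed little, with 0.50 in the whole gate and 0.46 without erythroid-like cells.

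**Figure D3:**
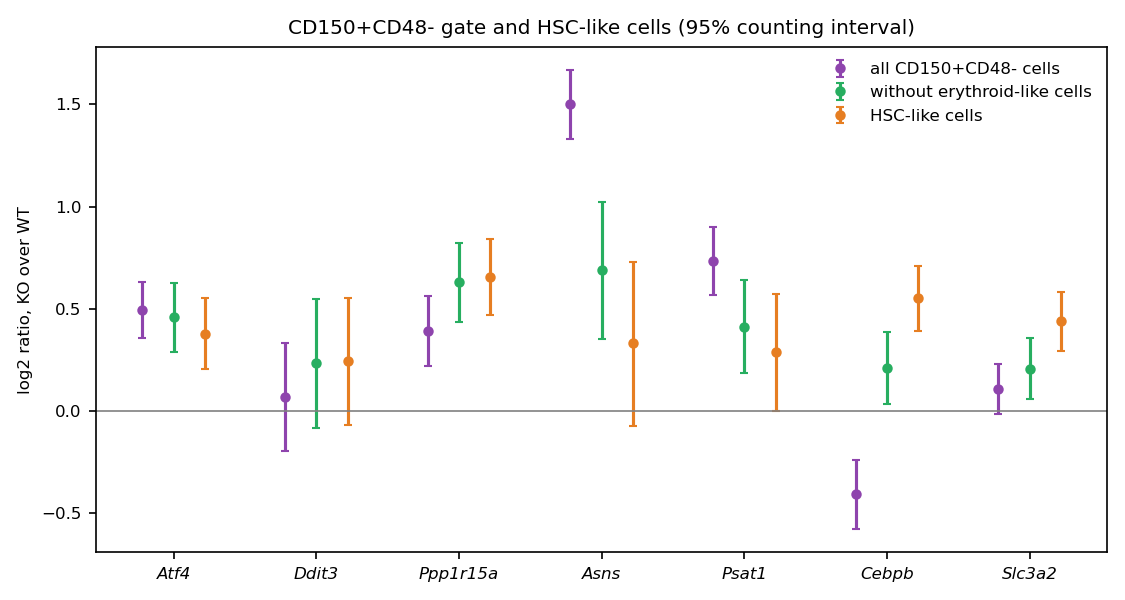
Log2 ratio of KO over WT for the 7 measured genes in all CD150+CD48- cells (purple), in that gate without erythroid-like cells (green) and in HSC-like cells of any gate (orange), with 95% counting intervals. The purple Asns point lies far above the green at 0.69, the Cebpb points lie on both sides of 0, and those of Atf4 lie between 0.38 and 0.50.

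In the other gates the set of higher members was similar. In CD150-CD48- cells Ppp1r15a, Asns, Psat1 and Slc3a2 were higher, 4 of 7, where 10.3% of genes were. Slc3a2, at 0.45, was under the mark with the gates set by a mixture model (0.32), on log antibody UMIs (0.27) or with 1 threshold for both libraries (0.31). Erythroid-like cells were 21.8% of this gate in KO and 10.6% in WT, and HSC-like cells 25.9% in KO and 43.1% in WT. Summed mast cell markers were at 2003 CPM in KO and 1222 CPM in WT, and neutrophil markers at 288 CPM in KO and 5.02 CPM in WT. With the WT shares of clusters in this gate Asns was no longer above 0, and the median ratio of the members was smaller (values in the last section). The part of each cell type in the ratios was not tested. In CD150+CD48+ cells Ppp1r15a, Asns and Psat1 were higher, 3 of 7, where 8.9% of genes were. Erythroid-like cells were 27.9% of this gate in KO and 14.5% in WT. Asns had 66.3 CPM in KO and 43.3 CPM in WT there. In erythroid-like cells of any gate it had 173 CPM in KO and 154 CPM in WT. In CD150-CD48+ cells, the largest gate with 1668 KO and 3598 WT cells, Atf4, Ppp1r15a, Asns, Psat1 and Cebpb were higher, 5 of 7, where 7.71% of genes were. Counted from the median gene of that gate, Atf4, Ppp1r15a and Asns were, 3 of 7. Erythroid-like cells were 3.66% of KO cells and 1.95% of WT cells in that gate, the lowest shares of the 4 gates. There Atf4 had 87.2 CPM in KO and 65.0 CPM in WT, at 0.42 (0.37 to 0.48), and Ppp1r15a had 40.3 CPM in KO and 21.0 CPM in WT, at 0.94 (0.86 to 1.02).

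HSC-like cells, 235 in KO and 696 in WT, were named from markers of which Mecom, Mllt3, Procr and Pdzk1ip1 were among the 10 leading genes of the cluster. The summed level of the 12 HSC markers in them was 2174 CPM in KO and 1929 CPM in WT. In these cells 9 of the 10 members were measured and Atf4, Ppp1r15a, Asns, Cebpb, Sesn2 and Slc3a2 were higher, 6 of 9, where 19.6% of all measured genes were. The median measured gene itself stood at 0.11. Counted from that median Ppp1r15a, Cebpb, Sesn2 and Slc3a2 were higher, 4 of 9, a count with no share of all genes beside it. Sesn2, at 7.34 CPM in KO and 4.10 CPM in WT in HSC-like cells, passed the minimum mean only through its KO level. Its place among the higher members in both counts is thus tied to that filter and adds no separate evidence. Cebpb had 111 CPM in KO and 75.6 CPM in WT there, at 0.55 (0.39 to 0.71), and Atf4 had 88.4 CPM in KO and 68.0 CPM in WT, at 0.38 (0.20 to 0.55).

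In lymphoid-like cells Atf4, Ppp1r15a, Cebpb and Slc3a2 were higher, 4 of 6 measured, where 17.9% of genes were. Counted from the median gene of that class only Ppp1r15a and Cebpb were, 2 of 6. In granulocyte-monocyte-like cells, whose leading genes include the neutrophil granule genes S100a8 and S100a9, 5 of 7 were higher, where 21.1% of genes were, and Ppp1r15a stood at 1.07 (0.79 to 1.36). Counted from the median gene of that class, at 0.11, 3 of 7 were. Within the class summed eosinophil markers were at 116 CPM in KO and 10.9 CPM in WT, neutrophil markers at 1171 CPM in KO and 1785 CPM in WT, and granulocyte-monocyte markers at 7435 CPM in KO and 5158 CPM in WT. Their part in the ratios was not tested. In megakaryocyte-like cells only Ppp1r15a and Asns were higher, 2 of 7, where 14.3% of genes were. In erythroid-like cells only Ppp1r15a and Psat1 were, 2 of 7, where 8.23% of genes were. Counted from the median gene of that class only Ppp1r15a was.

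In mast cell-like cells 5 of 7 were higher, where 23.1% of genes were, and Psat1 was lower, with 19 UMIs in KO and 42 in WT, at -0.62 (-1.49 to 0.19), where 32.7% of genes were lower. In monocyte or dendritic-like cells 5 of 7 were higher, where 22% of genes were, and 3 of 7 counted from the median gene of that class. Atf4 itself stood at 0.05 (-0.41 to 0.50) in the mast cell-like cells and at 0.47 (0.24 to 0.71) in the monocyte or dendritic-like cells. The mast cell-like ratios rest on 46 KO cells and their intervals are wide. Cells of unnamed clusters, 1474 in KO and 3336 in WT, had Atf4 at 83.2 CPM in KO and 64.4 CPM in WT, a log2 ratio of 0.37 (0.31 to 0.43). Ppp1r15a in them had 42.3 CPM in KO and 22.2 CPM in WT, a log2 ratio of 0.93 (0.84 to 1.02).

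**Figure D4:**
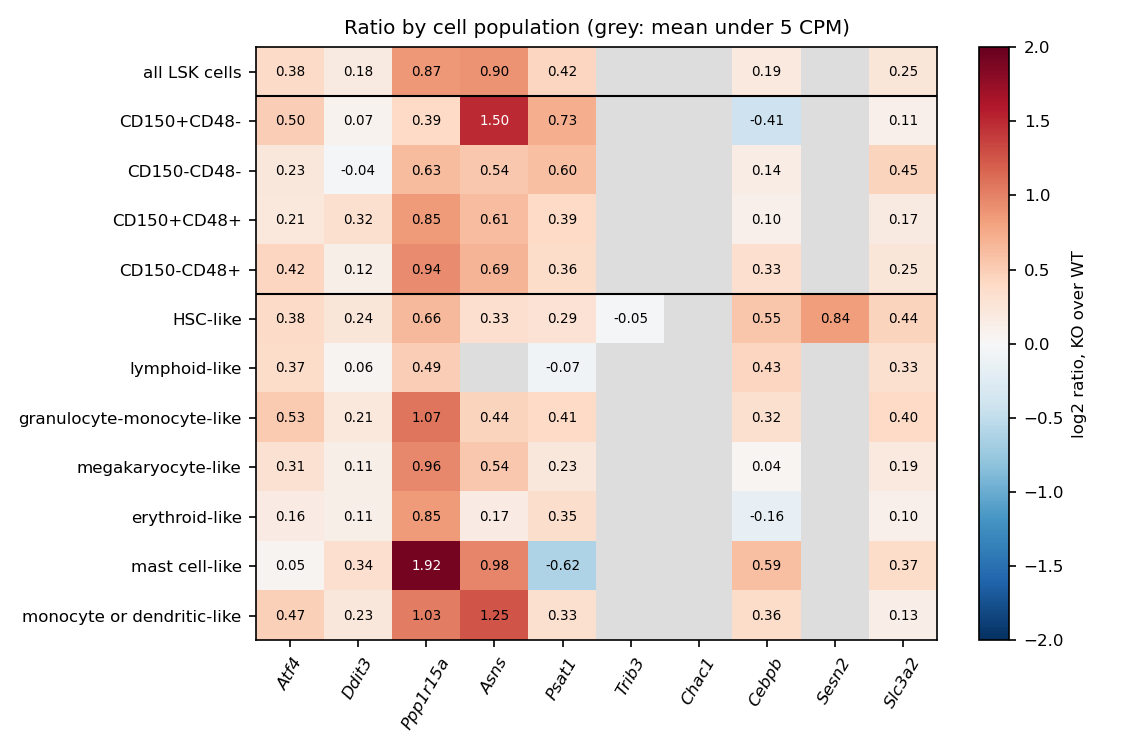
Log2 ratio of KO over WT for each gene (columns) in all LSK cells, the 4 surface gates and the 7 named classes (rows). Red is higher and blue lower in KO, and grey marks a mean under 5 CPM. The Ppp1r15a column is positive in all 12 rows, between 0.39 and 1.92, while Ddit3, Cebpb and Psat1 change sign between rows.

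**Figure D5:**
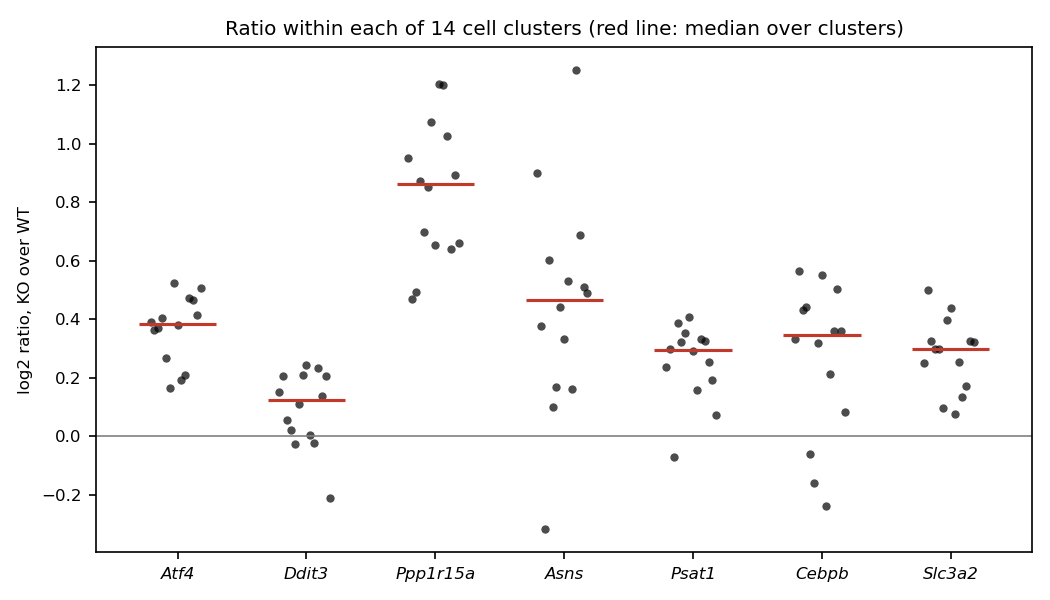
Log2 ratio of KO over WT within each of the 14 clusters with at least 50 cells of each library (points), for the 7 genes measured over all LSK cells, with the median over clusters as a red line. Atf4, Ppp1r15a and Slc3a2 lie above 0 in 14 of 14 clusters, and Ddit3 lies on both sides of 0.

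Across clusters only some members had levels that rose with that of Atf4. Over the 14 clusters, which share a library and differ in depth and cell cycle, the Pearson correlation of log2 CPM with Atf4 was 0.38 in KO and 0.65 in WT for Asns, 0.06 in KO and -0.17 in WT for Ppp1r15a, and -0.06 in KO and -0.45 in WT for Cebpb. The correlation with Atf4 was 0.38 in KO and 0.45 in WT for Psat1, and 0.20 in KO and 0.45 in WT for Slc3a2. For Ddit3 it was 0.17 in KO and 0.099 in WT. For the rare Trib3, Sesn2 and Chac1 it was below 0 in both libraries. These values describe clusters of the same libraries and carry no test. Over the clusters of both libraries as 28 points, the genes most alike among 5343 were Snhg5 (0.83), Ranbp2 (0.81) and Tmem248 (0.78) for Atf4. They were Txnl1 (0.95), Pla2g12a (0.94) and Nars (0.92), the asparaginyl-tRNA synthetase, for Asns. For Ddit3 they were Ppp4r3b (0.81), Anxa7 (0.80) and Hadha (0.79), and for Ppp1r15a Dnajb4 (0.82), Adipor1 (0.82) and Yme1l1 (0.81). The 28 points mix the difference between libraries with that between clusters, and the part of each was not tested.

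Other genes of the pathway were counted from lists, beside the 7.47% of all measured genes that were higher and the 2.57% lower over all LSK cells. Of the 13 aminoacyl-tRNA synthetase and tRNA export genes, which charge tRNAs and are known ATF4 targets, Aars, Cars, Gars and Iars were higher, 4 of 13, and 0 lower over all LSK cells, with a median log2 ratio of 0.26. Aars had 20.9 CPM in KO and 16.1 CPM in WT, a log2 ratio of 0.38, and Gars and Iars stood at 0.35 and 0.33. In the CD150+CD48- gate 10 of 13 were higher, where 17.8% of all genes were, and 6 of 13 without its erythroid-like cells, where 20.3% were. In HSC-like cells 3 of 13 were higher, near the 19.6% of all genes there, and in erythroid-like cells 0 of 13, where 8.23% were. In mast cell-like cells 1 of 13 was higher and 6 lower, where 23.1% of all genes were higher and 32.7% lower. The list summed to 1113 CPM in KO and 1026 CPM in WT in erythroid-like cells, and to 686 CPM in KO and 629 CPM in WT in HSC-like cells.

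Of 5 measured genes of amino acid synthesis Mthfd2 and Aldh18a1, 2 in all, were higher and 0 lower. Mthfd2, of mitochondrial one-carbon metabolism, was at 28.8 CPM in KO and 22.4 CPM in WT, a log2 ratio of 0.36. Phgdh, the first enzyme of the serine pathway in which Psat1 acts second, was at 244 CPM in KO and 290 CPM in WT, a log2 ratio of -0.25 (-0.27 to -0.22). Psat1 and Phgdh thus stood on opposite sides of 0. Shmt2 stood at 0.28. Of 4 measured amino acid transporters only Slc7a1, which carries arginine and lysine, was higher, with 30.5 CPM in KO and 21.6 CPM in WT, at 0.50 (0.43 to 0.57). Slc7a5, the light chain that pairs with the Slc3a2 product, stood at 0.29, and Slc1a5 at 0.08.

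Upstream of Atf4, 0 of 9 genes of the eIF2alpha kinases, their partners and the phosphatase were higher or lower. Ppp1r15b, the constitutive counterpart of Ppp1r15a, was at 27.3 CPM in KO and 21.9 CPM in WT, a log2 ratio of 0.32 (0.25 to 0.39), and Eif2ak1 and Dele1, of the haem and mitochondrial arm, both stood at 0.22. Of the 9 eIF2 and eIF2B subunits 0 were higher or lower, with a median of 0.06. In the CD150+CD48- gate 6 of 9 were higher and 1, the Y-linked Eif2s3y, was lower, where 17.8% of all genes were higher and 21.4% lower. Without the erythroid-like cells of that gate 1 of 9 was higher, where 20.3% of all genes were. In HSC-like cells 0 of 9 were higher or lower, where 19.6% of all genes were higher. The subunits summed to 1261 CPM in KO and 1215 CPM in WT in erythroid-like cells, and to 639 CPM in KO and 633 CPM in WT in HSC-like cells. Eif2b5, Eif2b3 and Eif2s2 stood at 0.24, 0.20 and 0.18. Of 3 measured transcription factors and partners 2 were higher, Cebpa, of the myeloid lineage, and Nfe2l2, which drives the antioxidant response, with 54.6 CPM in KO and 42.9 CPM in WT, at 0.35. Cebpg, a dimer partner of ATF4, was at 37.5 CPM in KO and 39.9 CPM in WT, at -0.09. Of 7 measured growth and stress signalling genes 1 was higher, Vegfa, and Klhl24, Sqstm1 and Herpud1 stood at 0.06, 0.03 and 0.03.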

How the data were processed

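The 4 samples are an RNA and an antibody sample for each genotype, from 1 library each. The deposited matrices hold raw UMI counts per gene or antibody and barcode, made with Cell Ranger, per the file headers. Version 4.0.6 and build mm10 are given in the submitters' processing notes. The aligner's settings are not given in the sources used here. The UMI minimum for a cell was 10% of the 99th percentile among the 6000 largest barcodes, and never under 1000: 9992 UMIs in KO and 8178 in WT. A cell also needed 500 genes and a mitochondrial share of no more than 10%. Scrublet marked 7 KO and 0 WT cells, so as a caller it did not work and doublets were kept.

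Cells of both libraries were clustered together with scanpy 1.11.5 (2000 variable genes, 30 components, 15 neighbours, Leiden resolution 1.0), with the members, the pathway lists, immediate early, cell cycle, haemoglobin, mitochondrial and ribosomal protein genes left out of the variable genes. A cluster was called "X-like", by a rule set after the clusters were seen, at a median log2 fold of at least 1 over a fixed marker list, 3 markers at 20 CPM and 3 among its 10 leading genes. Unnamed clusters held 55.1% of KO and 62.4% of WT cells. CD150, CD48 and CD201 were cut by Otsu's threshold per library on centred log ratios of antibody UMIs, and 10.1% of KO and 7.05% of WT cells lay within 0.25 of the CD150 threshold. UMIs were summed per library and population. Levels carry exact Poisson intervals, log2 ratios exact conditional binomial intervals, and a count of 0 allows up to 3. PCR and capture add error beyond counting. Empty droplets had 100 to 300 gene UMIs, and haemoglobin in lymphoid-like cells bounded free RNA at 27.5% in KO and 17.6% in WT. The intervals were checked on sums simulated as Poisson counts, which is the model they assume. That check holds no variation between cells, embryos or captures and cannot speak to it. Promoter windows and positions came from RefSeq (GRCm38.p6), in which all 10 members matched.

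The named genes were the 10 members, up to 3 genes per pathway list with the largest absolute log2 ratio among those at 20 CPM or more in either library, and the 3 genes most alike to each of 4 members. Named beyond the rule, after their values were seen, were Bclaf1, Calr, Dnajb9, Hspa1a, Hspa1b, Hsph1, Dnajb1, Cars, Aldh18a1, Cebpa, Eif2s3y, Vegfa and the leading genes of clusters. The members and lists were chosen with earlier results of these data known. Alternatives covered scaling, depth, cell filters, free RNA, make-up, doublets, gates and clustering.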

Additional observations from a re-analysis of the deposited data

Results flagged for a closer look

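For 2 members the direction differed between surface gates, with counting intervals on opposite sides of 0. The differences between gates were not tested. Cebpb stood at a log2 ratio of -0.41 in CD150+CD48- cells, from 486 UMIs in KO and 679 in WT, and at 0.33 in CD150-CD48+ cells, from 5616 UMIs in KO and 6852 in WT. Without erythroid-like cells the first value was 0.21.

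Trib3, with a mean under 5 CPM in each of these gates, stood at -0.88 in CD150+CD48- cells, from 29 UMIs in KO and 56 in WT. It stood at -0.95 in CD150-CD48- cells, from 31 UMIs in KO and 59 in WT. In CD150+CD48+ cells it stood at 1.75, from 27 UMIs in KO and 9 in WT. Without erythroid-like cells these became -0.63, -0.51 and 1.01, and each of the 3 intervals then took in 0.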

How the results depend on the processing

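No paired analysis was possible because each genotype has 1 library and the results come from no test. Of 473 values of single members under the alternatives, 377 stayed within the counting interval of the value reported, 91 moved beyond it, and 5 that had been called higher or lower changed sign. Counting values near 0 and rare genes too, 25 of the 473 changed sign, such as Chac1 over all LSK cells at -0.98 when thinned and Psat1 in HSC-like cells at -0.039 with free RNA subtracted. The median log2 ratio of the measured members over all LSK cells, 0.38, was 0.32 with median-of-ratios scaling, 0.29 with free RNA subtracted, 0.29 with WT shares of clusters and 0.27 over all 10 members with no minimum level. In CD150-CD48- cells the median, 0.45, was 0.27 with gates on log antibody UMIs, 0.58 with thinned cells and 0.28 with WT shares of clusters, and in CD150+CD48+ cells it was 0.53 with thinned cells. The number of members at least 25% higher became 6 over all LSK cells, 4 in megakaryocyte-like and 2 in mast cell-like cells when thinned. With free RNA subtracted it became 2 in lymphoid-like, 1 in megakaryocyte-like and 3 in monocyte or dendritic-like cells. At clustering resolution 1.5 it became 3 in granulocyte-monocyte-like and 1 in erythroid-like cells, and with WT shares of clusters 2 in CD150+CD48- cells. The share of all genes under each of these settings is not given here, so these counts cannot be set against it. Cebpb in CD150+CD48- cells changed sign to 0.24 when thinned, 0.21 without erythroid-like cells and 0.30 with WT shares of clusters. Asns changed sign to -0.31 in megakaryocyte-like cells with free RNA subtracted and to -0.081 in CD150-CD48- cells with WT shares of clusters. Each subtraction of free RNA used its upper bound. For Asns that bound, 22.7 CPM in KO and 8.65 CPM in WT, lay above the whole lymphoid-like level, 3.46 CPM in KO and 4.32 CPM in WT. It thus takes too much Asns from those cells, and the value of -0.31 rests on the same bound. The same share per library, 27.5% in KO and 17.6% in WT, was used for every member. The other values with free RNA subtracted thus rest on it too. Leaving out erythroid-like cells, and WT shares of clusters within gates, were chosen after seeing the data. Where no construction of the alternative shows it, the cause was not tested. Under 5 CPM, depth limits Trib3, Chac1 and Sesn2.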
